A study of Arabidopsis thaliana with 8 samples.

Results

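The genes described here are 51 Arabidopsis thaliana loci that build, move and break down glucosinolates, the sulfur-rich defence compounds of cabbage and its relatives. They were listed by locus for their known roles, with earlier results of these data known, and fall into 8 classes. These are 9 genes of side-chain elongation, 10 of the aliphatic and shared core pathway, 7 of aliphatic side-chain modification, 6 MYB regulators, 8 of indole core and side-chain steps, 3 transporters, 3 myrosinases and 5 specifier or associated proteins. Of the 51 loci, 50 were among the 27634 rows of the deposited tables, and 48 passed the filter on low counts that left 18155 genes to test. MYB122 (AT1G74080) had between 0 and 4 counts in a library. AOP3 (AT4G03050), which forms hydroxyalkyl side chains, had 1 count in WT replicate 3 and 0 counts in the other libraries, where a count of 0 allows up to 3 counts, or 0.129 to 0.177 CPM (counts scaled to library size). These 2 genes were not tested, and AOP2 was not analysed here.

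RNA came from rosette leaves of plants aged 24 days, kept for 11 days on plates and then for 13 days in soil, with 4 libraries of the wild type (WT) and 4 of DLK2-OE1. DLK2-OE1 is, by its name, an overexpressor of DLK2, an α/β hydrolase related to the strigolactone receptor D14. The labels list no treatment, and the sources used here do not give the promoter of the transgene. A single line was sampled, so an effect of DLK2 and any other trait of that line cannot be told apart. Whether the replicates were separate plants is not stated either, so p-values measure library-to-library spread that may be technical.

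Aliphatic glucosinolates are made from methionine, whose side chain is first lengthened in the plastid, and indole glucosinolates from tryptophan. Both are built through an aldoxime, gain a sulfur from glutathione, and are finished with a glucose and a sulfate group, after which the side chain can be oxidised or methoxylated. The finished compounds are moved between tissues by GTR transporters and stored apart from myrosinases. When tissue is damaged the myrosinases cut off the glucose, and specifier proteins turn the product from isothiocyanates towards nitriles or epithionitriles.

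Library totals ran from 18097159 to 22139801 counts. DLK2 was higher in each DLK2-OE1 library than in any WT library, with a log2 fold change over WT (log2FC) of 0.92 and an adjusted p of 0.0178 by edgeR (SE 0.12). DLK2-OE1 replicates 1 and 2 were above the other 6 libraries in summed markers of shoot meristem, xylem and cell division. DLK2-OE1 replicates 3 and 4 were also above all WT libraries for the meristem and cell division markers, and replicate 3 for the xylem markers. Summed FPKM of 3 shoot meristem genes was at most 0.947 in WT, while DLK2-OE1 replicates 1 and 2 had 26.4 and 48.1 and the other pair 5.48 and 5.45, and STM and KNAT1 had 0 counts in WT replicates 1, 3 and 4. Summed FPKM of 5 xylem genes was 8.75 to 29.8 in WT, while the first pair had 77.4 and 126 and the other pair 39.1 and 26. For 7 cell division genes it was 6.78 to 12.9 in WT, while the first pair had 52.1 and 75.6 and the other pair 19.8 and 14.4. By edgeR 3 of 3 meristem, 3 of 5 xylem and 3 of 7 cell division genes rose, where 2.12% of all genes passed as higher at an adjusted p of 0.05. DESeq2 called 3, 4 and 7 of them, against 8.62% of all genes, and limma-voom none, with 3, 4 and 6 at an unadjusted p under 0.05. Without the first pair, edgeR called 0, 1 (IRX3) and 0, against 0.328% of all genes. That fit has fewer libraries, so a lost call alone does not show that a rise rests on the first pair. The log2FC of these markers stayed positive in it, at 2.22 to 4.98, 0.32 to 1.91 and 0.33 to 1.68. With all libraries the ranges were 3.88 to 6.63, 1.27 to 3.02 and 1.38 to 2.47. DLK2-OE1 replicates 3 and 4 were both above all WT libraries for 3 of 3, 3 of 5 and 4 of 7 genes, against 13.3% of all genes. The 3 meristem genes passed the filter on low counts mainly through the DLK2-OE1 libraries. The marker lists were also chosen with earlier results of these data known, so these counts describe the libraries and are no test of them. The 5 mesophyll genes, which mark the labelled leaf tissue, were abundant in every library, at a summed 22378 to 32700 FPKM in WT and at 23991, 16963, 21733 and 28447 FPKM in DLK2-OE1, where replicates 2 and 3 were below all WT libraries. All 5 had negative fold changes, none passed the test by any of the 3 tools, and 1 had an unadjusted p under 0.05 by edgeR. The 3 root markers reached 0.025 FPKM at most. Of 3 flower genes AP1 and AP3 were too scarce to test, while SEP3 fell, at 19.4, 29.4, 36.6 and 9.28 CPM in WT and 2.15, 1.84, 4.40 and 8.41 CPM in DLK2-OE1. SEP3 was thus lower in all 4 DLK2-OE1 libraries, at log2FC -2.51 (SE 0.55, edgeR adjusted p = 0.0445), and -1.88 (adjusted p = 0.285) without replicates 1 and 2. Its edgeR adjusted p was also 0.117, 0.0938 and 0.147 without WT replicate 1, 2 or 3. It was 0.135, 0.102 and 0.0510 without DLK2-OE1 replicate 1, 2 or 3. DESeq2 called SEP3 as lower and limma-voom did not. The part of these markers in the results below was not tested, and fold changes that rest on DLK2-OE1 replicates 1 and 2 are given with and without them. In such bulk samples, fewer cells of a type and less RNA per cell cannot be told apart.

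Among the 48 tested glucosinolate genes, 2 fell in DLK2-OE1, the transporter gene GTR1 and the indole hydroxylase gene CYP81F3, and none passed the test as higher. Over all genes, 3.69% passed an adjusted p of 0.05, 2.12% as higher and 1.58% as lower, so the share called among the glucosinolate genes was close to the background. At an unadjusted p under 0.05 there were 9 higher and 6 lower glucosinolate genes, against 26.3% of all genes, 14.3% as higher and 12% as lower. DESeq2 called 7 higher (BCAT4, MYB29, CYP81F2, CYP81F4, GTR3, TGG1 and TGG2) and 3 lower (CYP81F3, GTR1 and ESP) of 49, against 8.62% of all genes as higher and 5.19% as lower. With limma-voom GTR1 was called as lower and no member as higher, against 1.45% of all genes in either direction. Without DLK2-OE1 replicate 4, edgeR called 8 members as higher (MAM1, BCAT4, IPMI2, MYB29, CYP81F2, CYP81F4, GTR3 and TGG2), against 7.87% of all genes, and 4 as lower (CYP81F3, GTR1, FMO GS-OX5 and ESP), against 4.01%. Of these members, only GTR1, CYP81F3 and TGG2 passed in any other fit without 1 library. Without DLK2-OE1 replicates 1 and 2 edgeR called none, against 0.328% of all genes, with 7 at an unadjusted p under 0.05. Positive fold changes outnumbered negative ones by 32 to 16. The median log2 fold change was 0.35 over the 48 genes and 0.00 over all genes, and it became -0.13 without DLK2-OE1 replicates 1 and 2. The groups did not overlap for 6 of the 48 genes, against 15.2% of all genes. These were TGG1 and TGG2, higher in every DLK2-OE1 library (2 of 48, against 7.87% of all genes), and GTR1, CYP81F3, FMO GS-OX4 and FMO GS-OX5, lower in every DLK2-OE1 library (4 of 48, against 7.29%).

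**Figure D1:**
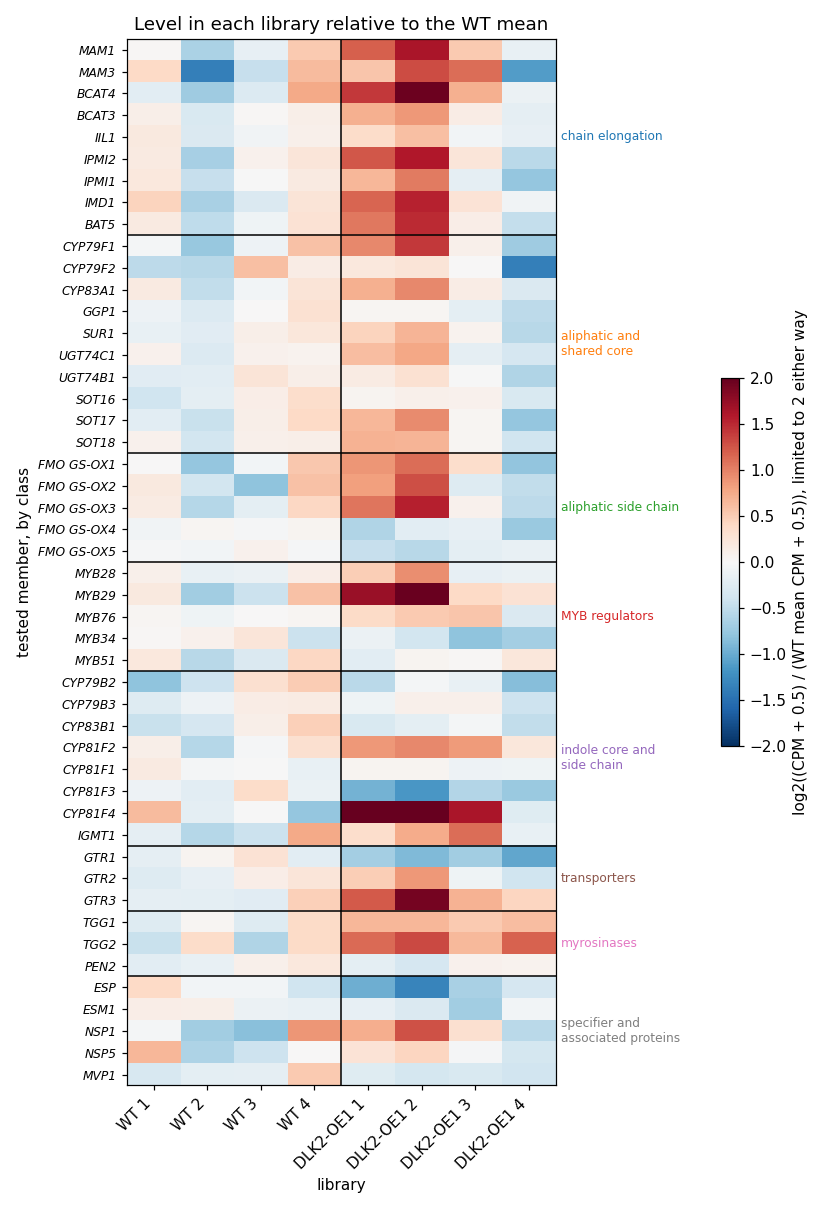
Level of each of the 48 tested glucosinolate genes (vertical axis, by class) in each of the 8 libraries (horizontal axis), as the log2 ratio of CPM to the WT mean with 0.5 CPM added to both and the colour limited to 2 either way. Chain elongation genes other than MAM3 are deepest red in DLK2-OE1 replicates 1 and 2, and all genes of the class are pale or blue in replicate 4. GTR1 is blue and TGG2 red in all 4 DLK2-OE1 libraries.

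**Figure D2:**
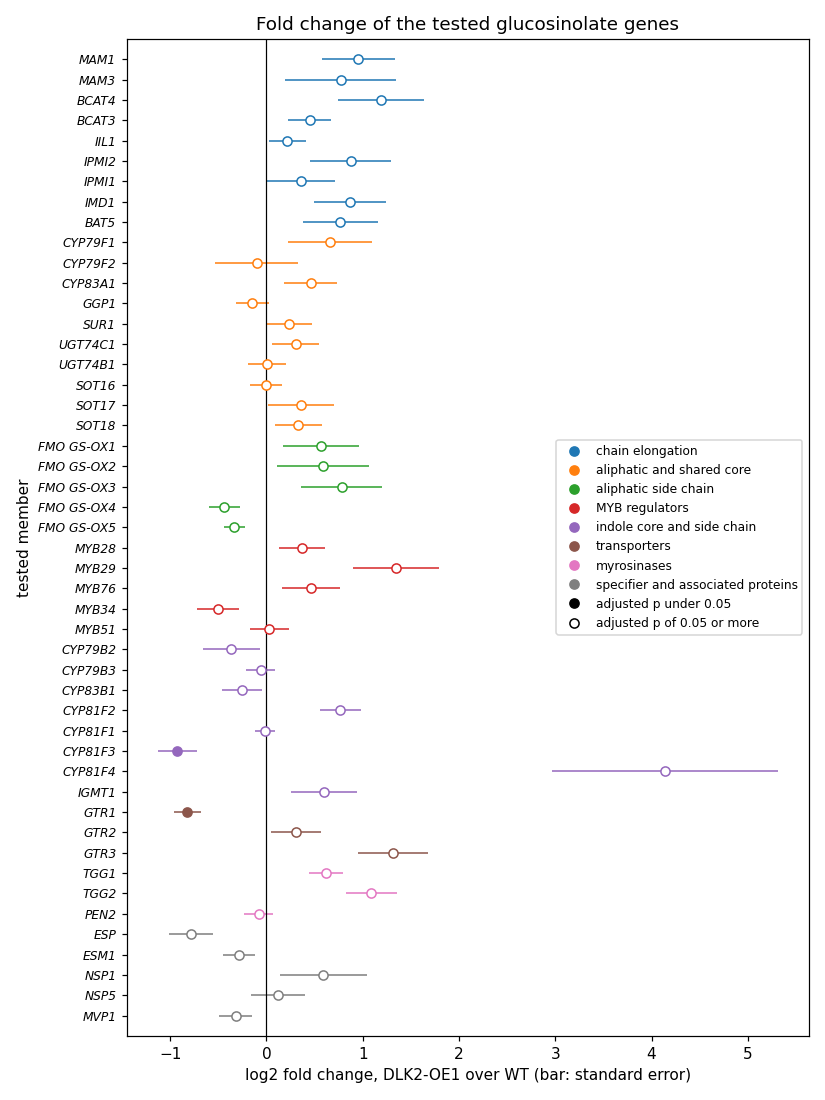
Log2 fold change of DLK2-OE1 over WT for the 48 tested glucosinolate genes (points) with the standard error of the fit (bars), coloured by class and filled where the adjusted p was under 0.05. The 2 filled points, GTR1 and CYP81F3, lie left of 0, and all 9 chain elongation genes lie right of 0 with open points.

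The chain elongation genes, which lengthen the methionine side chain one carbon at a time, had positive fold changes in 9 of 9 cases and a median of 0.77. None passed the test, at adjusted p from 0.140 to 0.544, and 3 had an unadjusted p under 0.05. Without DLK2-OE1 replicate 4 BCAT4, MAM1 and IPMI2 passed as higher, and no gene of the class passed in any other fit without 1 library. BCAT4 (AT3G19710), the aminotransferase that sends methionine into the pathway, stood at 113, 79.8, 108 and 221 CPM in WT and at 349, 506, 213 and 119.9 CPM in DLK2-OE1, each in the order of replicates 1 to 4. DLK2-OE1 replicates 1 and 2 lay above every WT library, whereas replicates 3 and 4 lay below WT replicate 4. For BCAT4 the log2FC was 1.19 (SE 0.45, edgeR adjusted p = 0.140) with all libraries and 0.36 (SE 0.44, adjusted p = 0.762) without DLK2-OE1 replicates 1 and 2, while it was 1.44 (adjusted p = 0.0435) without replicate 4. With 1 other library left out, the edgeR adjusted p of BCAT4 was up to 0.355. MAM1 (AT5G23010), the methylthioalkylmalate synthase that condenses the keto acid with acetyl-CoA, was the most abundant gene of the class by FPKM. Its level was 339, 215, 297 and 481 CPM in the WT libraries and 763, 1039, 478 and 301 CPM in the DLK2-OE1 libraries. The same pair of libraries was high, and replicates 3 and 4 lay within the WT range. For MAM1 the log2FC was 0.95 (SE 0.38, adjusted p = 0.153), and 0.24 (SE 0.32, adjusted p = 0.787) without that pair or 1.19 (adjusted p = 0.0458) without replicate 4. Leaving out 1 other library gave MAM1 an edgeR adjusted p of up to 0.361.

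The other 7 genes of the class are MAM3, a synthase for longer chains, the aminotransferase gene BCAT3, the isomerase subunits IIL1, IPMI1 and IPMI2, the dehydrogenase IMD1 and the plastid keto acid carrier BAT5. All 9 genes were highest in DLK2-OE1 replicate 2, where 29.8% of all tested genes were highest. WT replicate 2 was the lowest library for 8 of the 9, against 9.01% of all genes. Summed FPKM of the class was 744, 458, 618 and 926 in WT and 1579, 2311, 887 and 601 in DLK2-OE1. DLK2-OE1 replicates 1 and 2 were thus above each WT library, and replicates 3 and 4 inside the WT range. By CPM, both of the first pair were above all WT libraries for 8 of the 9 genes, all but MAM3, against 28.9% of all genes. Without the first pair, the median log2 fold change of the class was 0.00, with 5 of 9 positive.

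**Figure D3:**
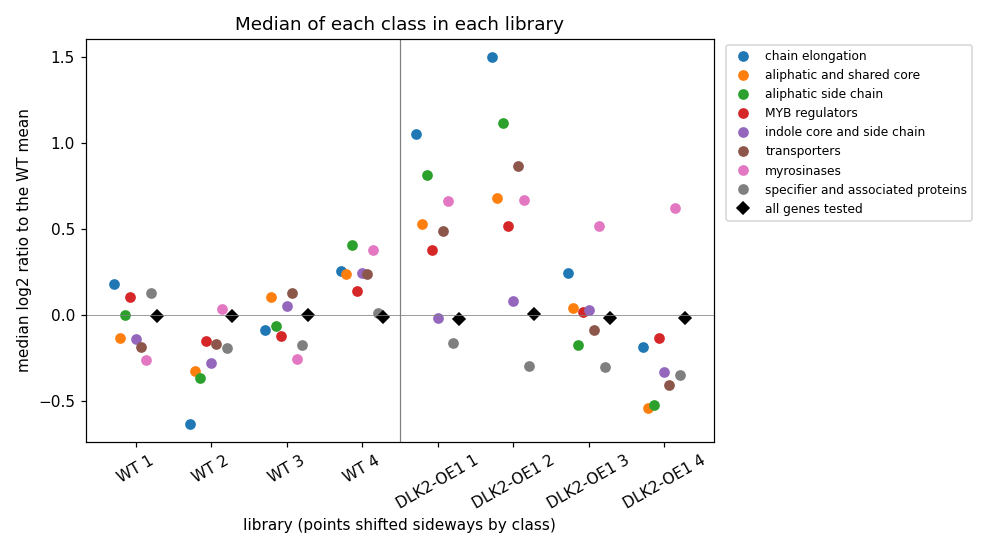
Median log2 ratio of CPM to the WT mean (vertical axis) over the tested genes of each class (coloured points) and over all tested genes (black diamonds) in each library (horizontal axis). Chain elongation reaches 1.06 and 1.5 in the first pair of DLK2-OE1 libraries and is 0.24 and -0.18 in the other pair, while the myrosinases lie between 0.52 and 0.67 in all 4 DLK2-OE1 libraries.

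The core genes turn the elongated amino acid into a glucosinolate, and 7 of 10 had positive fold changes, with a median of 0.27. None passed the test, at adjusted p from 0.317 to 0.992, none had an unadjusted p under 0.05, and neither DESeq2 nor limma-voom called any. CYP79F1 (AT1G16410), the cytochrome P450 that makes aldoximes from elongated methionine, had the highest fold change of the class. It stood at 151, 91.1, 144 and 233 CPM in WT and at 303, 414, 166 and 94.7 CPM in DLK2-OE1. Again the first pair of DLK2-OE1 libraries was above WT and the other pair inside its range, and the log2FC of 0.66 (SE 0.44, adjusted p = 0.362) became -0.24 (SE 0.39, adjusted p = 0.830) without the first pair. CYP79F1 shares 91.4% of aligned coding bases with CYP79F2 and the longest identical run is 100 bases, so the split of reads between them is uncertain. GGP1 (AT4G30530), the peptidase that trims the glutathione conjugate, was the most abundant core gene by FPKM and had the lowest fold change. Its level was 211, 189, 227 and 281 CPM in WT and 233, 233, 198 and 158 CPM in DLK2-OE1, overlapping between the groups, at log2FC -0.15 (SE 0.17, adjusted p = 0.611). The remaining genes are CYP83A1, the P450 after CYP79F, the C-S lyase SUR1, the glucosyltransferases UGT74B1 and UGT74C1, and the sulfotransferases SOT16, SOT17 and SOT18. DLK2-OE1 replicates 1 and 2 were both above all WT libraries for 6 of the 10 core genes (28.9% of all genes), and replicates 3 and 4 for 0 of 10 (13.3% of all genes). All 10 fold changes were negative without the first pair, with a median of -0.24.

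Short sequence words that MYB and MYC factors can bind were searched on both strands in the 250 bases upstream of each gene start of the RefSeq annotation of TAIR10.1. The word CACGTG was present for 3 of 51 genes (5.88%) and for 6.49% of 27443 protein-coding genes. ACCTAAC was present for 2 of 51 (3.92%) and for 2.46% of all, and ACCTACC for 3 of 51 (5.88%) and for 1.16% of all. None of the 3 words contains another, and CACGTG reads the same on both strands. CYP83A1 and SUR1, the 2 genes of the set whose window holds both CACGTG and an AC-rich word, are shown first, and the 2 genes that fell, whose windows hold none of the 3 words, follow. Each is written 5′ to 3′ on the strand of its gene, up to the base before the gene start, with matches to either strand in capitals.
CYP83A1 (chr4:7992430-7992679, minus strand): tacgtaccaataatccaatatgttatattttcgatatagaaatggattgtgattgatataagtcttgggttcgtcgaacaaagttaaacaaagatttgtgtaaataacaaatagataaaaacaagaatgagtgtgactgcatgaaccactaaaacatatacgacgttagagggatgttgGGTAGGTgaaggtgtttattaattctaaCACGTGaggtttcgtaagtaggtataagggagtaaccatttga
SUR1 (chr2:8880441-8880690, minus strand): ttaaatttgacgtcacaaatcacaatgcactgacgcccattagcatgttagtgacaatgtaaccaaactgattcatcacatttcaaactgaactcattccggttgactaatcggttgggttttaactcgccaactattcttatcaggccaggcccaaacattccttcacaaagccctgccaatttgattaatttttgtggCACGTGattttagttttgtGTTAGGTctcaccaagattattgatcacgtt
GTR1 (chr3:17700924-17701173, minus strand): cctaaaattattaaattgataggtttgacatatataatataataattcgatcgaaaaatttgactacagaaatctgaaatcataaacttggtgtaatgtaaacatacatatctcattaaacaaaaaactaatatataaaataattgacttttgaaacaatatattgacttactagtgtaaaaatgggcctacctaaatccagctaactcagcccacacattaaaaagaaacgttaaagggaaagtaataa
CYP81F3 (chr4:17583742-17583991, plus strand): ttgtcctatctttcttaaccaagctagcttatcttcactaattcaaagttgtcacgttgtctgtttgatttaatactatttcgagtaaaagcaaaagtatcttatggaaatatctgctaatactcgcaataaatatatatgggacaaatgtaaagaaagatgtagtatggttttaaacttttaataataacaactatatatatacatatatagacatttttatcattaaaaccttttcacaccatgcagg
In CYP83A1 the capitals are GGTAGGT, which is ACCTACC on the other strand, starting 71 bases before the gene start, and CACGTG starting 43 bases before it. In SUR1 they are CACGTG at 50 bases and GTTAGGT, which is ACCTAAC on the other strand, at 31 bases. CYP83A1 was highest in DLK2-OE1 replicate 2, at 476 CPM against 294 in the highest WT library. SUR1 was highest there too, at 165 CPM against 121. Neither passed the test, and without DLK2-OE1 replicates 1 and 2 the log2FC went from 0.46 to -0.05 for CYP83A1 and from 0.23 to -0.20 for SUR1. A match of this length is a description of the letters and not of binding.

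Side-chain modification was split. The flavin monooxygenases FMO GS-OX1 to FMO GS-OX5 oxidise the methylthio group of aliphatic glucosinolates, and 3 of the 5 had positive and 2 negative fold changes, with adjusted p from 0.0969 to 0.459 and 2 at an unadjusted p under 0.05. DESeq2 and limma-voom called none of them. FMO GS-OX3 (AT1G62560), with the highest fold change, shared the high pair of the chain elongation genes, at 27.7, 16.4, 21.5 and 32.9 CPM in WT and 52.4, 73.2, 26.1 and 17.0 CPM in DLK2-OE1. Its log2FC was 0.78 (SE 0.42, adjusted p = 0.268), and -0.18 (SE 0.30, adjusted p = 0.830) without DLK2-OE1 replicates 1 and 2, the only libraries above WT. FMO GS-OX5 (AT1G12140), the most abundant of the 5 by FPKM, had 51.9, 51.1, 56.5 and 52.4 CPM in WT and 38.3, 35.9, 46.1 and 47.9 CPM in DLK2-OE1. The groups did not overlap, and DLK2-OE1 replicates 1 and 2 were the lowest libraries, opposite to FMO GS-OX3. For FMO GS-OX5 the log2FC was -0.33 (SE 0.11, adjusted p = 0.0969), -0.16 (SE 0.09, adjusted p = 0.451) without that pair, and -0.41 (adjusted p = 0.0465) without replicate 4. In the other fits without 1 library its edgeR adjusted p was up to 0.263. FMO GS-OX4 (AT1G62570) stood at 8.08, 8.74, 8.40 and 8.83 CPM in WT and 5.41, 7.29, 7.51 and 4.91 CPM in DLK2-OE1. These groups did not overlap either, and the log2FC was -0.44 (SE 0.16, adjusted p = 0.129) with all libraries and -0.44 (SE 0.19, adjusted p = 0.322) without the pair.

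Across the 3 aliphatic classes together, DLK2-OE1 replicates 1 and 2 were both above all WT libraries for 17 of 24 tested genes, against 28.9% of all genes, and replicates 3 and 4 for 0 of 24, against 13.3%. Summed FPKM of the 3 classes was 1440, 1012, 1361 and 1876 in WT and 2720, 3772, 1647 and 1131 in DLK2-OE1. The median log2 fold change was 0.41 with all libraries and -0.16 without the first pair. These libraries are also the ones with the most meristem, xylem and cell division transcripts, whose part in this pattern was not tested.

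The R2R3-MYB factors MYB28, MYB29 and MYB76 activate aliphatic genes, and MYB34, MYB51 and MYB122 activate indole genes. None of the 5 tested passed, at adjusted p from 0.107 to 0.942, and 2 had an unadjusted p under 0.05. MYB29 (AT5G07690) had 9.55, 4.96, 6.01 and 12.7 CPM in WT and 28.5, 34.3, 11.2 and 10.2 CPM in DLK2-OE1. As for the chain elongation genes, DLK2-OE1 replicates 1 and 2 were above WT and the other pair inside its range. For MYB29 the log2FC was 1.35 (SE 0.45, adjusted p = 0.107), 0.38 (SE 0.35, adjusted p = 0.680) without the first pair, and 1.57 (adjusted p = 0.0442) without replicate 4. With 1 other library left out, the edgeR adjusted p of MYB29 was up to 0.27. MYB28 (AT5G61420), the main activator of the aliphatic branch, had 27.5, 22.9, 23.5 and 28.1 CPM in WT and 36.0, 49.3, 22.8 and 23.2 CPM in DLK2-OE1, with the same pair high. Its log2FC was 0.37 (SE 0.24, adjusted p = 0.349), and -0.13 (SE 0.12, adjusted p = 0.640) without the pair. MYB76 (AT5G07700) was scarce, at 0.982 to 1.12 CPM in WT and at 1.55, 1.76, 1.82 and 0.790 CPM in DLK2-OE1. Its groups overlapped through DLK2-OE1 replicate 4, and the log2FC was 0.46 (SE 0.30, adjusted p = 0.355).

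The indole regulators did not share that order of libraries. MYB34 (AT5G60890) had 7.02, 7.42, 8.30 and 5.0 CPM in WT and 6.36, 5.28, 3.75 and 4.12 CPM in DLK2-OE1. DLK2-OE1 replicates 3 and 4 were the lowest libraries, and the other pair lay within the WT range. For MYB34 the log2FC was -0.50 (SE 0.22, adjusted p = 0.177), and -0.81 (SE 0.23, adjusted p = 0.172) without DLK2-OE1 replicates 1 and 2. MYB51 (AT1G18570), the most abundant of the 6 regulators by FPKM, had 60.4, 35.3, 42.4 and 69.6 CPM in WT and 45, 53.8, 52.6 and 60.8 CPM in DLK2-OE1. All DLK2-OE1 libraries lay inside the WT range, and its log2FC was 0.03 (SE 0.20, adjusted p = 0.942), with a sign that turned in 3 of the 8 fits without 1 library.

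In the indole branch, CYP81F3 fell and the other 7 genes did not pass the test. The class had 3 positive and 5 negative fold changes and a median of -0.04, which was -0.10 without DLK2-OE1 replicates 1 and 2 and 0.08 in a fit to log2(FPKM + 1), where the median of all genes was 0.12. CYP81F3 (AT4G37400, chromosome 4 from 17583992 to 17586442, plus strand) encodes a P450 of the CYP81F group, which hydroxylates the indole ring. It had 6.72, 6.19, 9.49 and 6.53 CPM in WT and 3.51, 2.96, 4.66 and 4.12 CPM in DLK2-OE1, from 69 to 191 raw counts. Each DLK2-OE1 library was below each WT library. Averages were 7.23 ± 1.52 CPM over the WT libraries (SD, n = 4) and 3.81 ± 0.739 CPM over the DLK2-OE1 libraries (SD, n = 4), 1.90-fold lower, at log2FC -0.93 (SE 0.20) and an edgeR adjusted p of 0.0440. Leaving out any of 6 of the 8 libraries ended the call. The adjusted p was 0.116, 0.0838, 0.146 and 0.0565 without WT replicate 1, 2, 3 or 4, 0.136 and 0.0803 without DLK2-OE1 replicate 1 or 2, and 0.201 without both of these, at log2FC -0.71.

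CYP81F4 (AT4G37410), the relative that hydroxylates the ring nitrogen, had its highest counts in DLK2-OE1. Its counts were 14, 5, 7 and 0 in WT and 123, 372, 40 and 4 in DLK2-OE1, so it passed the filter mainly through the DLK2-OE1 libraries. DLK2-OE1 replicates 1, 2 and 3 were above WT and replicate 4 was inside the WT range. The log2 fold change was 4.14 (SE 1.17, adjusted p = 0.0728), 1.78 (SE 1.07, adjusted p = 0.495) without DLK2-OE1 replicates 1 and 2, and 4.54 (adjusted p = 0.0195) without replicate 4. Leaving out 1 other library gave CYP81F4 an edgeR adjusted p of up to 0.186. CYP81F3 and CYP81F4 share 82% of aligned coding bases, with a longest identical run of 35 bases. CYP81F2 (AT5G57220), whose product starts the methoxylation needed in pathogen defence, had 27, 16.5, 24.4 and 31.2 CPM in WT and 45.8, 48.5, 45.2 and 29.1 CPM in DLK2-OE1. Here DLK2-OE1 replicates 1 to 3 lay above WT and replicate 4 within it, and the log2FC was 0.77 (SE 0.21, adjusted p = 0.0701), 0.60 (SE 0.26, adjusted p = 0.361) without the first pair, or 0.90 (adjusted p = 0.0231) without replicate 4. In the other fits without 1 library its edgeR adjusted p was up to 0.181. CYP83B1 (AT4G31500), the P450 that commits indole aldoxime to glucosinolates and the most abundant gene of the class by FPKM, had 189, 204, 279.6 and 360.0 CPM in WT and 208, 225, 251 and 183 CPM in DLK2-OE1. The groups overlapped, at log2FC -0.25 (SE 0.21, adjusted p = 0.472). CYP79B2 and CYP79B3, which make the aldoxime from tryptophan, CYP81F1 and the methyltransferase gene IGMT1 also overlapped between the groups. IGMT1 shares 93% of aligned coding bases with IGMT4, so its count is uncertain.

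**Figure D4:**
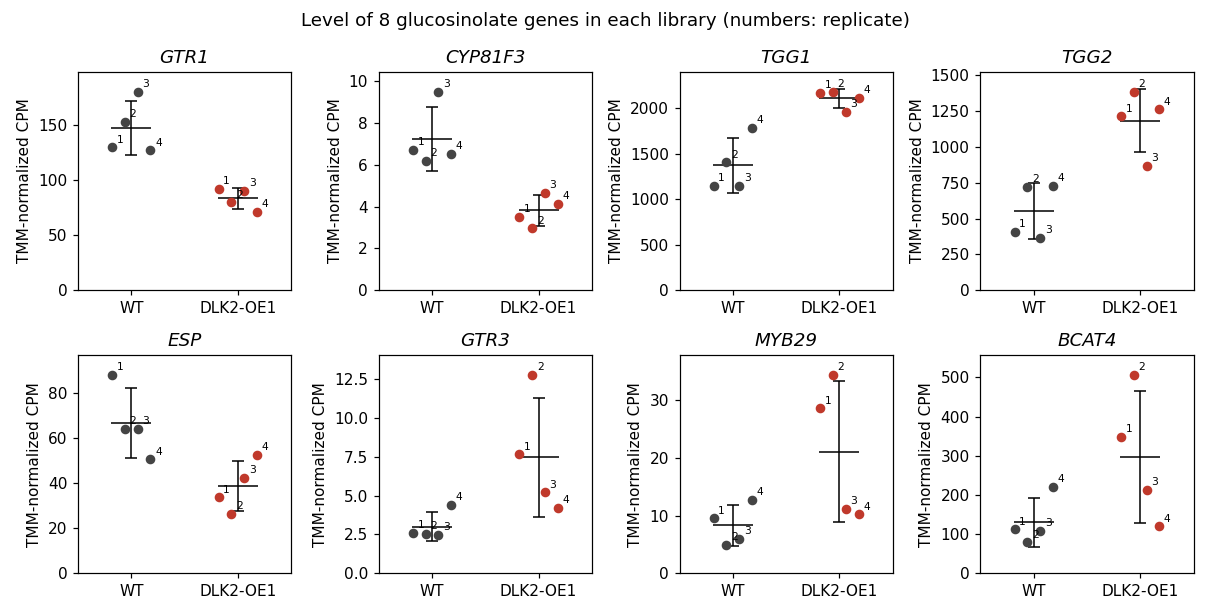
TMM-normalized CPM (vertical axes, starting at 0) of 8 glucosinolate genes in the 4 WT and 4 DLK2-OE1 libraries, with the replicate number beside each point and the mean ± SD of the 4 libraries as lines. GTR1 and CYP81F3 are lower and TGG1 and TGG2 higher in all 4 DLK2-OE1 libraries, whereas MYB29 and BCAT4 stand above WT in replicates 1 and 2 only.

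GTR1 fell in DLK2-OE1. It encodes a proton-coupled importer that loads glucosinolates into the phloem, and was the most abundant of the 3 transporter genes by FPKM, at a mean of 64.7 in WT. GTR1 (AT3G47960, chromosome 3 from 17697942 to 17700923, minus strand) had 129.6, 153, 180.0 and 127 CPM in WT and 92.0, 79.5, 90.3 and 71.3 CPM in DLK2-OE1. All 4 DLK2-OE1 libraries were below the lowest WT library, and replicates 1 and 2 were interleaved with replicates 3 and 4. Averages were 147 ± 24.7 CPM over the WT libraries (SD, n = 4) and 83.3 ± 9.72 CPM over the DLK2-OE1 libraries (SD, n = 4), 1.77-fold lower, at log2FC -0.82 (SE 0.14) and an edgeR adjusted p of 0.0258. Without DLK2-OE1 replicates 1 and 2 the log2FC was -0.85 (SE 0.17, adjusted p = 0.0872). The adjusted p was also 0.072, 0.0701 and 0.0893 without WT replicate 1, 2 or 3 and 0.0747 with DLK2-OE1 replicate 1 left out, at log2FC from -0.90 to -0.72 over the 8 fits without 1 library. GTR1 overlaps AT3G47950 on the other strand, which had 0.376 FPKM in WT and 0.636 FPKM in DLK2-OE1.

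GTR2 (AT5G62680), the partner of GTR1 in phloem loading, shares 78% of its aligned coding bases and had 48.8, 52.0, 63.9 and 69.0 CPM in WT and 82.2, 107, 55.0 and 44.1 CPM in DLK2-OE1. GTR2 was high in DLK2-OE1 replicates 1 and 2 only, whereas GTR1 was low in every DLK2-OE1 library. GTR2 did not pass the test, at log2FC 0.30 (SE 0.26, adjusted p = 0.480), or -0.23 (SE 0.16, adjusted p = 0.567) without DLK2-OE1 replicates 1 and 2. GTR3 (AT1G18880) had 2.59, 2.55, 2.48 and 4.39 CPM in WT and 7.66, 12.7, 5.20 and 4.23 CPM in DLK2-OE1. Its groups overlapped by WT replicate 4 and DLK2-OE1 replicate 4, and the log2FC was 1.31 (SE 0.36, adjusted p = 0.0678), 0.66 (SE 0.28, adjusted p = 0.322) without DLK2-OE1 replicates 1 and 2, or 1.5 (adjusted p = 0.0275) without replicate 4. With 1 other library left out, the edgeR adjusted p of GTR3 was up to 0.182. Markers of phloem, the tissue GTR1 and GTR2 load, had 0 of 5 genes past the edgeR test and 2 at an unadjusted p under 0.05, while SEOR1 was called as higher by DESeq2 and, without DLK2-OE1 replicate 4, by edgeR, and limma-voom called none. Their summed FPKM was 224 to 316 in WT and 183 to 269 in DLK2-OE1.

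The leaf myrosinase genes TGG1 and TGG2 were higher in every DLK2-OE1 library than in any WT library, but neither passed the edgeR test. TGG1 (AT5G26000), the most abundant glucosinolate gene by FPKM and number 82 of all 27634 rows, had 1145, 1408, 1149 and 1784 CPM in WT and 2173, 2183, 1962 and 2114 CPM in DLK2-OE1. The gap between the groups was from 1784 to 1962 CPM, and the DLK2-OE1 libraries were closer to one another than the WT libraries were. TGG1 averaged 1372 ± 301 CPM over the WT libraries (SD, n = 4) and 2108 ± 102 CPM over the DLK2-OE1 libraries (SD, n = 4), at log2FC 0.62 (SE 0.18, adjusted p = 0.0739). TGG2 (AT5G25980) had 407, 720.4, 367 and 727 CPM in WT and 1213, 1385, 869 and 1263 CPM in DLK2-OE1. It averaged 555 ± 195 CPM over the WT libraries (SD, n = 4) and 1183 ± 221 CPM over the DLK2-OE1 libraries (SD, n = 4), at log2FC 1.09 (SE 0.27, adjusted p = 0.0544). The lowest DLK2-OE1 library of TGG2 was above the highest WT library by 869 to 727 CPM. Without DLK2-OE1 replicates 1 and 2, the log2FC values were 0.58 (SE 0.19, adjusted p = 0.228) for TGG1 and 0.95 (SE 0.33, adjusted p = 0.260) for TGG2. TGG2 passed as higher without DLK2-OE1 replicate 3 (log2FC 1.21, adjusted p = 0.0385) and without replicate 4 (1.05, adjusted p = 0.0496). In the other fits without 1 library TGG2 did not pass, at an edgeR adjusted p of up to 0.158.

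TGG1 and TGG2 were the 2 members for which DLK2-OE1 replicates 3 and 4 both lay above all WT libraries (2 of 48, against 13.3% of all genes). Their summed FPKM was 789.8, 1062, 776.6 and 1360 in WT and 1986, 2325, 1516 and 1747 in DLK2-OE1. The 2 genes share 83% of aligned coding bases, with a longest identical run of 55 bases. TGG1 and TGG2 are made in guard cells and myrosin cells. Of 6 markers listed for these cells, most of them guard cell genes, 0 passed the edgeR test, and DESeq2 and limma-voom called none. By edgeR 1 had an unadjusted p under 0.05 as lower (KAT1, which passed without DLK2-OE1 replicate 4). Summed FPKM of the 6 was 92.8 to 130 in WT and 69.0 to 112 in DLK2-OE1. Myrosin cells were not tested apart from guard cells. PEN2 (AT2G44490), an atypical myrosinase that acts on indole glucosinolates in living cells, had 393, 413, 490.2 and 529 CPM in WT and 397, 362, 487 and 479 CPM in DLK2-OE1. Its groups overlapped almost fully, at log2FC -0.08 (SE 0.15, adjusted p = 0.766).

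The specifier and associated proteins had 2 positive and 3 negative fold changes, with a median of -0.28 (-0.33 without DLK2-OE1 replicates 1 and 2) and adjusted p from 0.0767 to 0.824, and 1 had an unadjusted p under 0.05. ESP (AT1G54040), the epithiospecifier protein that favours nitriles and epithionitriles, had 88.2, 64.2, 64.1 and 50.6 CPM in WT and 33.8, 26.5, 42.5 and 52.6 CPM in DLK2-OE1. DLK2-OE1 replicates 1 to 3 were below all WT libraries and replicate 4 was just above WT replicate 4. For ESP the log2FC was -0.78 (SE 0.23, adjusted p = 0.0767), -0.48 (SE 0.21, adjusted p = 0.353) without the first pair, and -0.97 (adjusted p = 0.0280) without replicate 4. Leaving out 1 other library gave ESP an edgeR adjusted p of up to 0.209. ESM1 (AT3G14210), a modifier that represses nitrile formation, was the most abundant gene of the class by FPKM, with 863, 854, 729 and 712 CPM in WT and 707, 644, 486 and 759.5 CPM in DLK2-OE1. The groups overlapped through DLK2-OE1 replicate 4, and the log2FC was -0.28 (SE 0.16, adjusted p = 0.303). NSP1 (AT3G16400), a nitrile-specifier protein, varied as much within groups as between them, at 91.2, 57.8, 52.0 and 173 CPM in WT and 154, 226, 117 and 64.2 CPM in DLK2-OE1. Its log2FC was 0.59 (SE 0.45, adjusted p = 0.432), and -0.03 (SE 0.58, adjusted p = 0.986) without the first pair. NSP1 shares 95% of aligned coding bases with NSP4, with a run of 366 identical bases, so its count is uncertain. NSP5 and the myrosinase-associated lipase-like MVP1 overlapped between the groups.

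**Figure D5:**
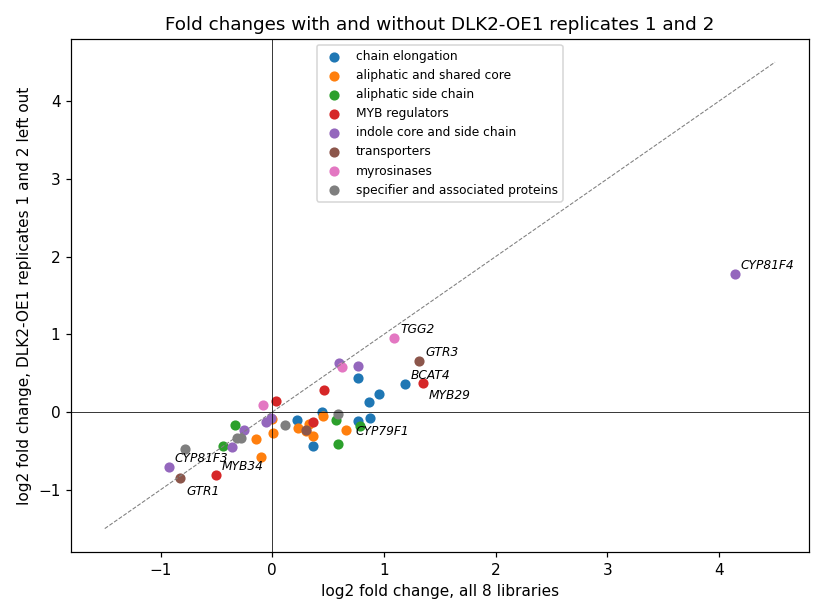
Log2 fold change of DLK2-OE1 over WT for the 48 tested glucosinolate genes with all 8 libraries (horizontal axis) and without DLK2-OE1 replicates 1 and 2 (vertical axis), coloured by class, with a dashed line of equality. GTR1 and TGG2 lie near the line, while BCAT4 moves from 1.19 to 0.36, MYB29 from 1.35 to 0.38 and CYP79F1 from 0.66 to -0.24.

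Genes next to these in the pathway were counted too. Among the other breakdown genes and nitrilases, 1 of 8 tested passed as lower and 0 as higher, with 4 higher and 2 lower at an unadjusted p under 0.05, against 14.3% and 12% of all genes. DESeq2, with an adjusted p for 10 of these genes, called 4 higher and 2 lower, against 8.62% and 5.19% of all genes. Without DLK2-OE1 replicate 4, edgeR called 4 of 8 as higher (MBP1, MBP2, NSP4 and NIT2), against 7.87% of all genes, and NIT4 as lower, against 4.01%. Without DLK2-OE1 replicates 1 and 2 edgeR called none of the list, against 0.328% of all genes. NSP4 had 0, 20, 2 and 1 counts in WT and passed the filter mainly through the DLK2-OE1 libraries. The gene that fell was NIT4, a nitrilase that acts on the cyanide product β-cyanoalanine, at 17.5 ± 2.99 CPM over the WT libraries (SD, n = 4) and 6.42 ± 2.07 CPM over the DLK2-OE1 libraries (SD, n = 4). Its log2FC was -1.45 (SE 0.23, edgeR adjusted p = 0.0205), and -1.32 (SE 0.27, adjusted p = 0.0923) without DLK2-OE1 replicates 1 and 2. The adjusted p of NIT4 was 0.072, 0.0621 and 0.0893 without WT replicate 1, 2 or 3 and 0.0747 without DLK2-OE1 replicate 1. No gene passed edgeR among 10 further chain elongation and core genes, 5 of side-chain and indole modification, 4 of sulfate activation, 8 regulators including MYC2, 3 exporters of the UMAMIT family and 8 of tryptophan synthesis. In that order, these lists held 3, 1, 0, 3, 1 and 0 genes at an unadjusted p under 0.05, where 26.3% of all genes were. DESeq2 called IPMI-SSU1 and DOF1.1 as lower and IGMT3 as higher among them, edgeR without DLK2-OE1 replicate 4 called DOF1.1 as lower and IGMT3 as higher, and limma-voom called none.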

How the data were processed

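Per the labels' protocols, oligo(dT)-selected RNA went into NEBNext Ultra libraries read on a NovaSeq. The submitters' processing notes name, without roles, the TAIR10 build, the aligners HISAT2 and Bowtie2 2.2.8, the trimmer fastp 0.18.0, StringTie 1.3.1 and RSEM, and, for statistics, edgeR and DESeq2. The sources used here do not give the strand setting, so close paralogs and opposite-strand overlaps are uncertain. Per the file headers, the deposited tables hold an FPKM value and a whole-number count for each gene and library, with no coordinates. Coordinates and upstream bases came from RefSeq TAIR10.1, matched by locus to 26719 of 27634 rows.

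Counts were fitted in R 4.3.3 with edgeR 4.0.16 (filterByExpr, TMM, glmQLFit with robust estimation, glmQLFTest), WT against DLK2-OE1. P-values were adjusted by Benjamini-Hochberg over the 18155 genes tested, and 0.05 was the threshold. The common coefficient of variation between libraries, beyond counting noise, was 0.222. CPM are TMM-normalized. Levels between genes are compared on the deposited FPKM, and summed FPKM of a list are given per library without TMM scaling. Standard errors are log2 fold changes over the square root of F. The fit was also run on simulated counts, which held no shift shared by libraries such as DLK2-OE1 replicates 1 and 2. That run thus says nothing on the part of this pair. Alternatives were DESeq2 size factors, no filter, 10 counts in 4 libraries, a replicate block, DESeq2 1.42.0, limma-voom and limma-trend (limma 3.58.1) on FPKM, as log2 of the value plus 1 or plus 0.1, where 4 libraries had 1 FPKM or more, the first also without that filter, and leaving out each library or DLK2-OE1 replicates 1 and 2 together. Replicates differed by more than counting noise.

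The members and the lists of related genes and markers were chosen with earlier results of these data known. Fold changes are given for members with an adjusted p under 0.1, tested MYB regulators, and the member with the most FPKM and those with the highest positive and lowest negative fold change of each class. Of related genes, those past the threshold are named. Genes that a count names, and GTR2, CYP83A1, SUR1 and SEP3, are named after their values were seen.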

Additional observations from a re-analysis of the deposited data

Results flagged for a closer look

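In 7 of 96 checks of the 4 libraries of a group, 1 library lay far from the other 3, where chance gives about 1 in 20. UGT74C1 had 49.0 CPM in WT replicate 2 and 62.6 to 63.2 CPM in the other WT libraries. SOT18 was also low in WT replicate 2, at 36.4 CPM against 50.4 to 51.4 CPM. In DLK2-OE1 replicate 4, SOT16 had 69.5 CPM against 89.5 to 92.2 CPM in the other DLK2-OE1 libraries, and CYP81F2 had 29.1 CPM against 45.2 to 48.5 CPM. CYP81F3, one of the 2 genes that fell, had 9.49 CPM in WT replicate 3 and 6.19 to 6.72 CPM in the other WT libraries, and its log2 fold change without WT replicate 3 was -0.77 (edgeR adjusted p = 0.146). In WT replicate 4, GTR3 had 4.39 CPM against 2.48 to 2.59 CPM, and MVP1 had 70.0 CPM against 39.0 to 43.1 CPM.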

How the results depend on the processing

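The count of 2 glucosinolate genes past the threshold was also 2 with DESeq2 size factors, without a filter and with at least 10 counts in 4 libraries. It was 1 with a replicate block, 10 with DESeq2, 1 with limma-voom, 0 in each of the 3 fits to log2 FPKM (11 at an unadjusted p under 0.05 in each), and 0 without DLK2-OE1 replicates 1 and 2 (7 at an unadjusted p). Leaving out 1 library gave from 0 to 12 such genes, the 12 being without DLK2-OE1 replicate 4, and 0 without WT replicate 1, 2 or 3 or DLK2-OE1 replicate 1 (11 to 13 at an unadjusted p). The count over all genes, 670, became 245 with the replicate block, 2823 with DESeq2, 264 with limma-voom, 288, 340 and 51 in the FPKM fits with a pseudocount of 1, of 0.1 and of 1 without a filter, and 60 without DLK2-OE1 replicates 1 and 2. Leaving out 1 library gave from 0 to 2191, the highest being without DLK2-OE1 replicate 4 and the 0 without WT replicate 3, where 3599 genes had an unadjusted p under 0.05. DLK2 kept its sign without any 1 library, at log2 fold changes from 0.83 to 0.99. Its adjusted p was 0.067 when WT replicate 1, 0.0548 when WT replicate 3 and 0.0574 when DLK2-OE1 replicate 1 was left out.

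Correlations of same-numbered libraries about their group means ran from -0.10 to 0.12, so the numbers were not taken to pair the samples. Under the replicate block GTR1 remained past the threshold (adjusted p = 0.0461) and CYP81F3 had an adjusted p of 0.0531. Without DLK2-OE1 replicates 1 and 2 the sign turned for 19 of the 48 tested members, 18 of them from positive to negative. Among the members named by rule these were CYP79F1 (-0.24), FMO GS-OX3 (-0.18), MYB28 (-0.13), NSP1 (-0.032) and PEN2 (0.093). In the FPKM fits it turned for GGP1 (0.0013, 0.0012 and 0.0013) and PEN2 (0.066, 0.067 and 0.066), where all genes had a median log2 difference of 0.12, 0.13 and 0.10 in place of 0.00. Without 1 library MYB51 ranged from -0.12 to 0.19. The cause of these differences was not tested. Counts are deep for most members, and CYP81F4, MYB122 and AOP3 are limited by counts of 0 to 14 in WT libraries.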
